A study of Sus scrofa with 81 samples.

Results

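Fatty acid uptake and oxidation were followed in pig skeletal muscle through 10 genes: LPL, ANGPTL4, CD36, FABP3, PLIN5, CPT1B, CPT2, ACADM, PDK4 and UCP3. They were chosen by symbol, for their roles and with earlier results of these data known, from a table of 28061 genes. All 10 were among the 14220 genes expressed highly enough to be tested. Their NCBI gene IDs, in that order, are 397537, 397628, 733702, 399532, 100142670, 399528, 100519491, 397104, 100286778 and 397116. Muscle takes up fatty acids that lipoprotein lipase (LPL) frees from circulating lipoproteins in the capillary, a step that ANGPTL4 inhibits. CD36 helps them across the membrane, FABP3 carries them in the cytosol, and PLIN5 coats the lipid droplets that lie against mitochondria. CPT1B and CPT2 move the acyl chains into the mitochondrion as carnitine esters, ACADM starts the oxidation of medium-length chains, PDK4 shuts off pyruvate dehydrogenase and so the entry of carbohydrate carbon, and UCP3 is an inner-membrane carrier that is abundant in muscle when fatty acid supply is high. Mammals are born onto a diet rich in milk fat after a fetal life supplied mainly with glucose, and PDK4, CPT1B, UCP3 and ANGPTL4 are known targets of the fatty acid sensing PPAR receptors.

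RNA had been sequenced from skeletal muscle of pigs of the strain labelled Landrance at 27 stages, with 3 libraries at each and 81 in all. The 15 prenatal stages ran at intervals of days from E33 to E105 (45 libraries) and the 12 postnatal stages from D0 to D180 (36 libraries), with E read as day of gestation and D as day after birth. No treatment, mutation or transgene is given for any group. Which muscle was sampled, the sex, litter, diet and weaning age of the animals, and whether each library is a different animal are not given in the labels. The p-values set differences between stage means against the spread of libraries within stages, pooled over all 27 stages. With the animals unknown, that spread may be technical. Levels are FPKM, fragments scaled to transcript length and to the mapped total, as deposited, which are shares of a library and can be compared between genes. Differences are on the log2 scale of FPKM plus 1, which understates changes of genes near 0. A gene was called higher or lower at an adjusted p under 0.05 in limma's moderated test, with adjustment over all 14220 genes, and a difference of at least 1 on that scale.

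Summed FPKM ranged from 320339 to 452249 per library, and 11671 to 12482 genes reached 1 FPKM in prenatal libraries, against 9520 to 11053 in postnatal ones, with no overlap. The part of this split in the differences across birth was not tested. Relative sequencing depth, read from the steps between the lowest values, differed by at most 2.08-fold between libraries. The 8 skeletal muscle markers used to check the tissue label were all detected, and their summed FPKM lay between 3190 and 4070 at E33 and between 53800 and 64400 at D180. Several libraries stood apart from the others of their stage. D0 replicate 2 had the lowest PDK4, LPL, CD36 and ACADM and the highest ANGPTL4, CPT2, PLIN5, CPT1B and FABP3 of its stage. In D160 replicate 2, the summed FPKM of 7 slow-fibre genes was 19200, against 688 and 2030 in the other two. For PDK4, replicate 3 of D120 and of D140 stood far above the rest of its stage. In bulk muscle, fewer cells of a type and less RNA per cell cannot be told apart.

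All 10 genes differed between stages in limma's F test, as did 99.3% of all genes tested. The widest range of stage means was that of PDK4, which was 854 times as high at its peak as at its lowest stage, and the narrowest was that of ACADM, at 7.14 times. Peaks clustered around birth: PDK4, CPT2, FABP3, ACADM, LPL and PLIN5 had their highest mean at D0, CPT1B and ANGPTL4 at D9, UCP3 at D20 and CD36 at D30. None of the peaks stood clear of every other stage. The libraries of 1 other stage overlapped those of the peak for PDK4 and PLIN5 (D9), CPT1B (D0) and FABP3 (D20). CPT2 and ANGPTL4 had 2 such stages, CD36 and ACADM 5, UCP3 6 and LPL 15. Neighbours in the order of stage means overlapped in 22 of 26 cases for CPT1B and in all 26 for PDK4, ACADM and ANGPTL4, so most ranks next to each other were within the spread of libraries.

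**Figure D1:**
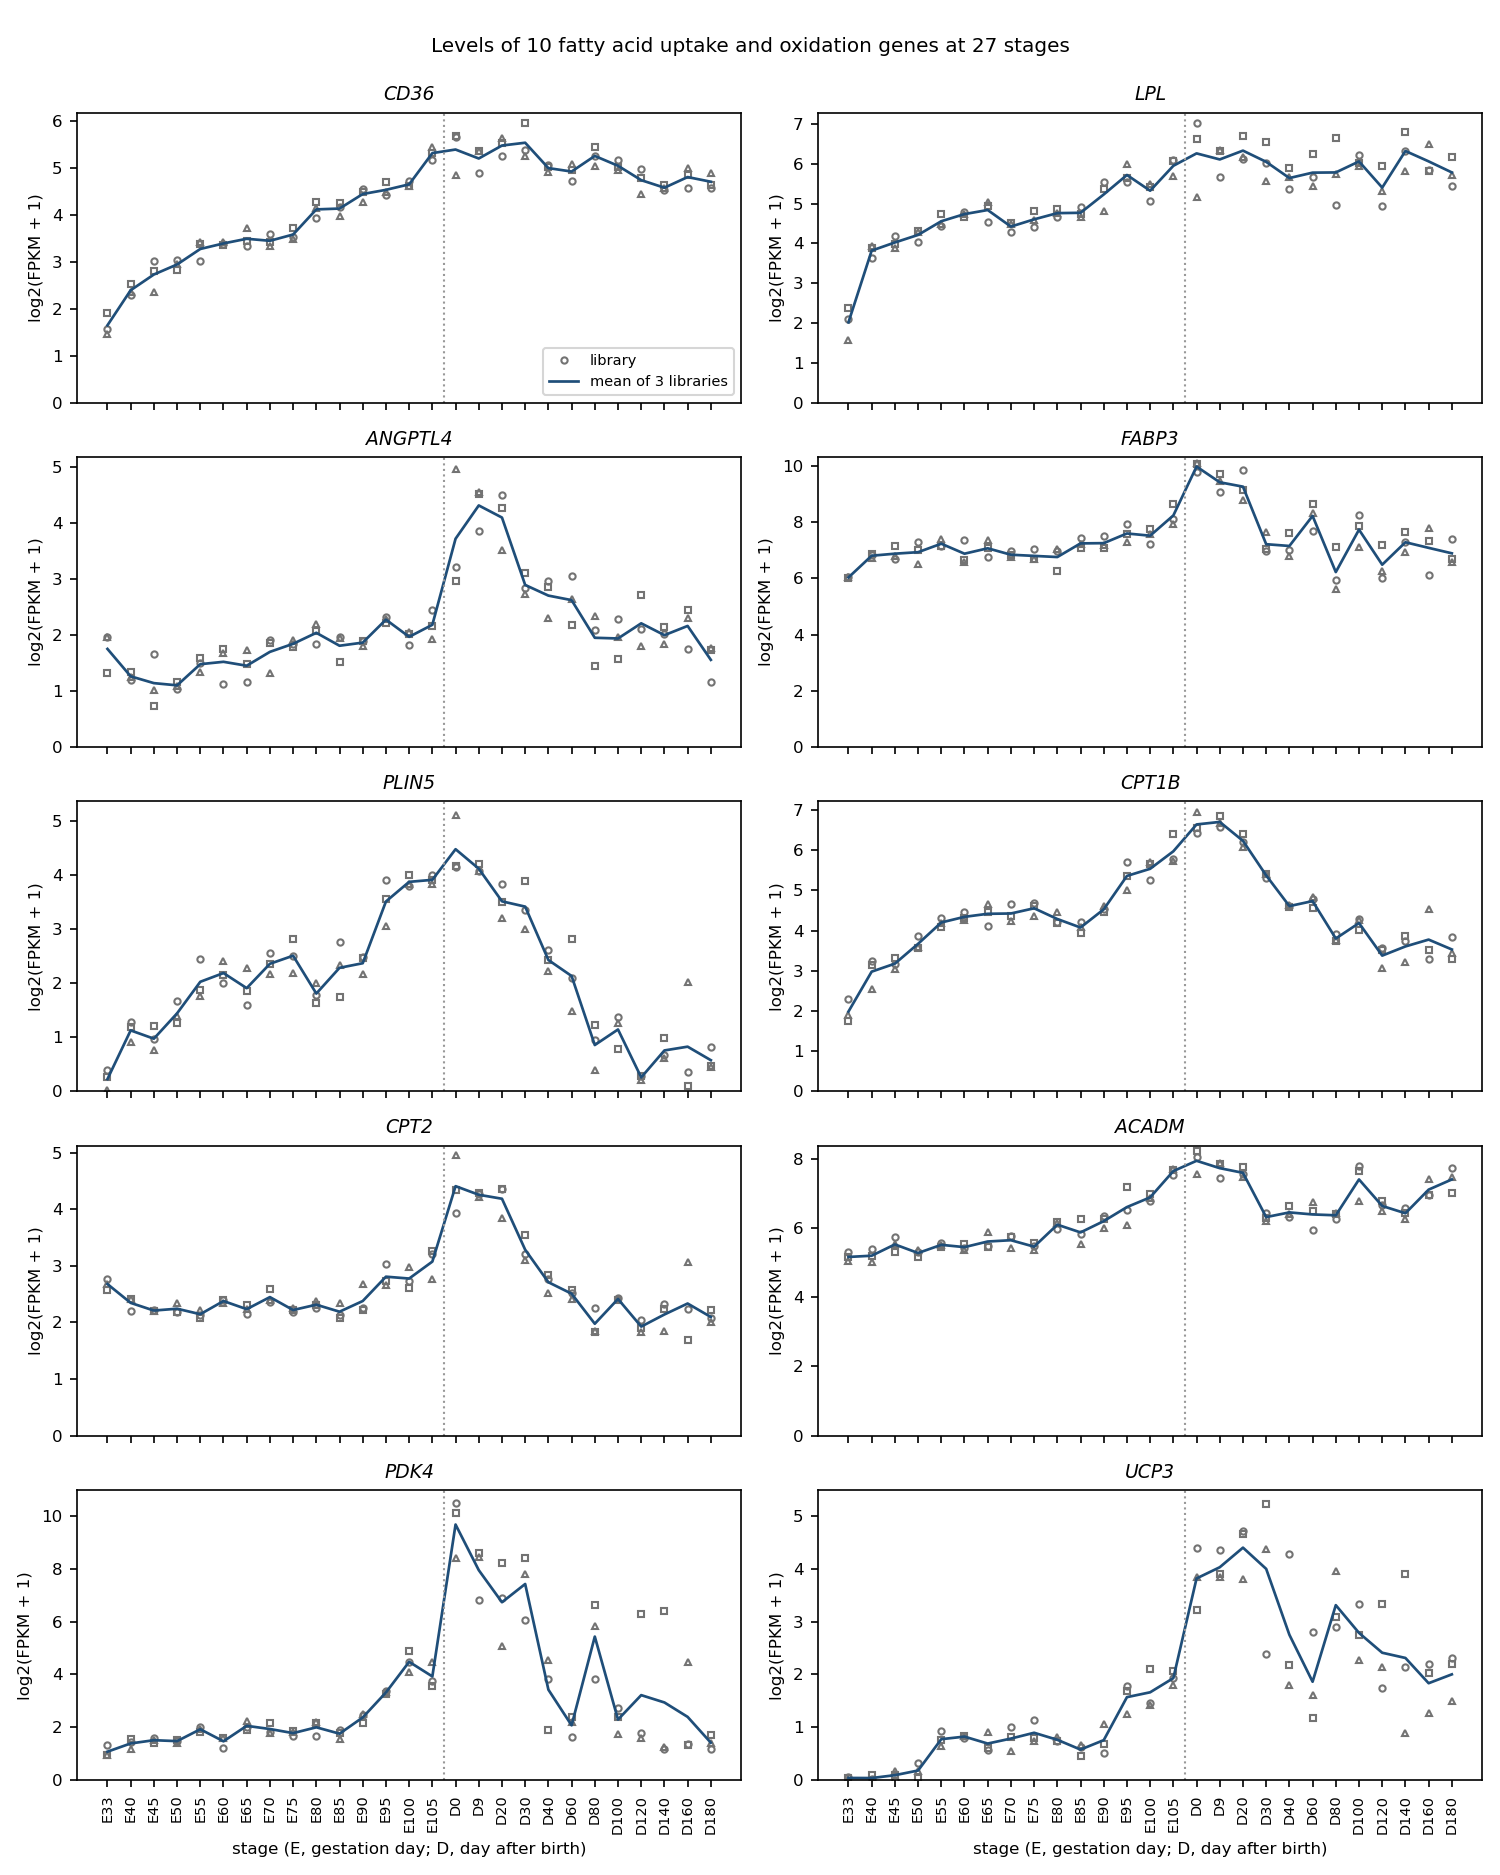
Levels of the 10 genes on the log2 scale of FPKM plus 1 (vertical axis) at 27 stages in order (horizontal axis, not to scale in time), with every library as a point, the mean of 3 libraries as a line and a dotted line at birth. CD36 and LPL climbed through gestation and remained at 54.3% and 63.9% of their peaks at D180. PLIN5, CPT1B, CPT2 and ANGPTL4 came back down after peaks at D0 or D9. The libraries of PDK4 lay far apart in most postnatal stages.

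The 10 genes reached birth by different routes. At E105, CD36 stood at 83.8% and ACADM at 79.9% of their highest stage mean, LPL at 70.8%, PLIN5 at 62.7% and CPT1B at 61.1%. CPT2 had reached 35.5%, FABP3 30.4%, ANGPTL4 18.5% and UCP3 13.5%. PDK4 had reached 1.54%. At the other end of the series, D180, the order was different, with ACADM at 68.9%, LPL at 63.9% and CD36 at 54.3% of the peak, and UCP3, CPT2, FABP3, CPT1B and ANGPTL4 between 10.3% and 15.5%. PLIN5 was then at 2.23% and PDK4 at 0.177%.

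**Figure D2:**
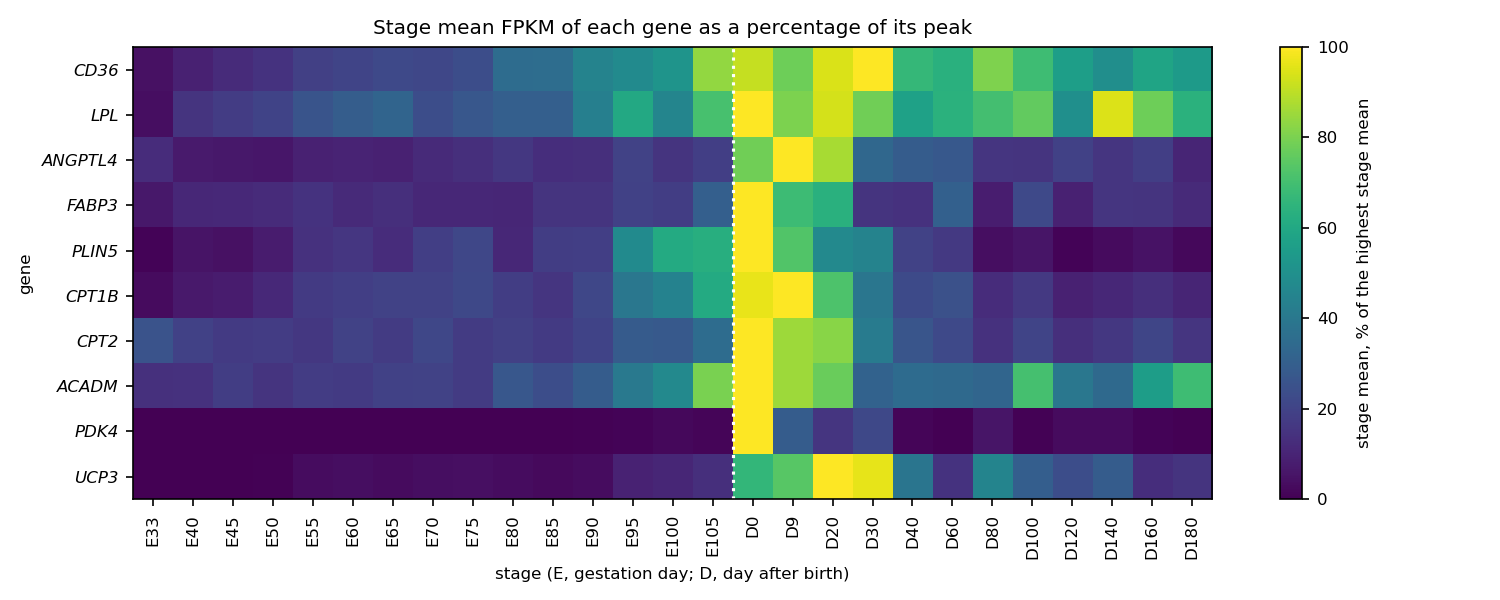
Stage mean FPKM of each gene as a percentage of its highest stage mean (colour, 0 to 100) for 10 genes (rows) and 27 stages (columns), with birth as a dotted line. The row of PDK4 is at the low end of the scale up to E105 (1.54%) and again at D180 (0.177%), while those of CD36, LPL and ACADM are at 54.3%, 63.9% and 68.9% at D180.

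The first question was how the set stood in fetal against postnatal muscle as a whole, as the mean of 12 postnatal stage means minus the mean of 15 prenatal ones. Of the 10, 5 were higher after birth, PDK4, UCP3, CD36, LPL and ACADM, and none was lower, while 26.6% of all genes tested were called, 4.02% as higher. The median difference was -0.55 over all genes and 1.05 over the 10.

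Of the uptake genes, CD36 had a median of 10.1 FPKM and a range of 1.74 to 42.4 over 45 prenatal libraries, against a median of 31.0 and a range of 20.8 to 60.6 over 36 postnatal ones. LPL went from a median of 24.4 to one of 60.4 FPKM. Both pairs of ranges overlapped, and the differences were 1.45 (SE 0.0457, adjusted p = 9.3e-38) for CD36 and 1.37 (SE 0.0828, adjusted p = 2.06e-23) for LPL. ANGPTL4, with a median of 2.49 FPKM before and 4.24 after birth, differed by 0.99 (SE 0.0801), just under the threshold of 1, and was called with a pseudocount of 0.1, at 1.22. FABP3 differed by 0.67 and PLIN5 by -0.13, and neither was called. In the carnitine shuttle, CPT1B and CPT2 differed by 0.48 and 0.42, also below the threshold. ACADM, with medians of 46.0 and 108.8 FPKM, differed by 1.10 (SE 0.0553, adjusted p = 1.96e-27). UCP3 had a median of 0.679 FPKM before birth and 6.22 after it, a difference of 2.19 (SE 0.13, adjusted p = 8.21e-24). PDK4 spanned 0.92 to 28.5 FPKM before birth and 1.24 to 1440 after it, and the difference of 2.42 (SE 0.229, adjusted p = 5.13e-15) thus summarised ranges that overlapped over most of the prenatal span. When libraries were rescaled so that their median genes matched, the median difference of all genes moved to -0.02, and calls over all genes went from 572 higher and 3209 lower to 1486 and 925. On that scale 9 of the 10 were called higher, and PLIN5 turned to 0.37, so no direction is given for it.

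Other genes of these pathways, taken from lists by role, numbered 78 tested, of which 13 were higher and 1 lower after birth, with a median difference of 0.30. CRAT, the mitochondrial carnitine acetyltransferase, was higher by 1.79, ACADS, the short-chain counterpart of ACADM, by 1.19, and ACACB, which makes the malonyl-CoA that restrains CPT1, by 2.09. PLIN4, another droplet coat protein, was higher by 2.86 and PLIN3 lower, at -1.68. ACSL1, which activates fatty acids with coenzyme A, was higher by 1.43 and the nuclear receptor ESRRA, a regulator of oxidative genes, by 1.33. Of 8 skeletal muscle markers 7 were higher, with a median of 1.65. Of 14 mitochondrial content genes 6 were higher and 0 lower, of 6 adipocyte markers 4, of 9 glucocorticoid response genes 3 and of 8 macrophage markers 2. Their part in the members' differences was not tested.

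Before birth, the set was compared between the last 3 fetal stages, E95 to E105, and the first 3, E33 to E45. Of the 10, 8 were higher late, all but CPT2 and ANGPTL4, and none was lower. Among all genes tested 15.4% were called, 6.07% as higher, and the median difference was -0.20 over all genes and 2.06 over the 10. Calls over all genes were 863 higher and 1325 lower as deposited, and 987 and 825 after the median-gene rescaling.

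LPL stood at 3.30, 1.95 and 4.20 FPKM in the 3 libraries of E33, at 11.4, 14.4 and 13.7 at E40, and at 67.4, 50.8 and 66.0 at E105. The step from E33 to E40 was the one early step in which a member was called (1.80, SE 0.302, adjusted p = 3.46e-06). Of all genes, 3.58% were called in that step. Over the whole fetal contrast LPL was higher by 2.38 (SE 0.174). CD36, at 1.97, 1.74 and 2.75 FPKM at E33 and 35.0, 42.4 and 38.8 at E105, was higher by 2.57 (SE 0.0962) without any single step being called. FABP3 was already abundant at E33, with 63.62 to 65.04 FPKM, and was higher by 1.21 (SE 0.187). All 9 late libraries lay above all 9 early ones for each of these 3 genes, as for 12.2% of all genes.

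PLIN5 and CPT1B had the largest differences on the log2 scale of FPKM plus 1, on which UCP3, near 0 in the early stages, is compressed. PLIN5 was at 0.312, 0.0195 and 0.199 FPKM at E33, at 4.61, 3.48 and 4.50 at E90 and at 14.1, 7.32 and 10.9 at E95. The step from E90 to E95 was called (1.14, SE 0.291, adjusted p = 0.0255), when 0.176% of all genes were. Over the whole contrast PLIN5 was higher by 2.99 (SE 0.168). CPT1B, at 3.90, 2.74 and 2.38 FPKM at E33 and 53.8, 52.5 and 83.6 at E105, was higher by 2.91 (SE 0.116). With it the makeup of the CPT1 family turned: CPT1B supplied 38% ± 2.75 (SD, n = 3) of the summed FPKM of CPT1A, CPT1B and CPT1C at E33 and 94.3% ± 1.13 at E105. CPT2, by contrast, stood at 5.85, 5.42 and 4.95 FPKM at E33 and 8.20, 5.79 and 8.56 at E105, and its difference of 0.47 (SE 0.104) stayed below the threshold.

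ACADM was at 38.4, 32.0 and 34.5 FPKM at E33 and 185.5, 208.4 and 205.1 at E105, and was higher by 1.75 (SE 0.117, adjusted p = 1.31e-20). UCP3 was listed at or below 0.0667 FPKM in the libraries of E33 and E40 and stood at 2.81, 2.47 and 3.18 FPKM at E105, a difference of 1.66 (SE 0.274) that the added 1 compresses. PDK4 went from 1.51, 0.92 and 0.939 FPKM at E33 to 20.9, 16.0 and 28.5 at E100 and 12.47, 21.03 and 10.74 at E105, a difference of 2.58 (SE 0.482, adjusted p = 3.37e-06). All late libraries lay above all early ones for ACADM, UCP3 and PDK4, as for PLIN5 and CPT1B and for 12.2% of all genes. ANGPTL4 stood at 2.91, 2.93 and 1.49 FPKM at E33 and 4.49, 2.83 and 3.47 at E105, and its difference of 0.76 (SE 0.169) was not called. With a pseudocount of 0.1 in place of 1 it was called, at 1.08.

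Of the 78 tested pathway genes, 30 were higher late in gestation and 2 lower, with a median difference of 0.69. Beta oxidation genes made up 8 of the 30, out of 15, led by ACADVL, which oxidises very long chains (1.76), ETFDH, which passes the electrons on to ubiquinone (1.67), and ACAA2, the last enzyme of the cycle (1.39). FABP4, the fatty acid carrier of fat and endothelial cells, was higher by 5.67 and ACSL1 by 3.07. GPIHBP1, which holds LPL on the capillary wall and is also 1 of the endothelial markers, was higher by 2.43. ACACA, the acetyl-CoA carboxylase of fatty acid synthesis, was lower, at -1.03, while its mitochondrial counterpart ACACB was higher by 1.68. Skeletal muscle markers rose in the same contrast in 8 of 8 cases, endothelial ones in 7 of 8, mitochondrial content genes in 7 of 14 and adipocyte markers in 3 of 6, and their part in the members' rise was not tested.

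**Figure D3:**
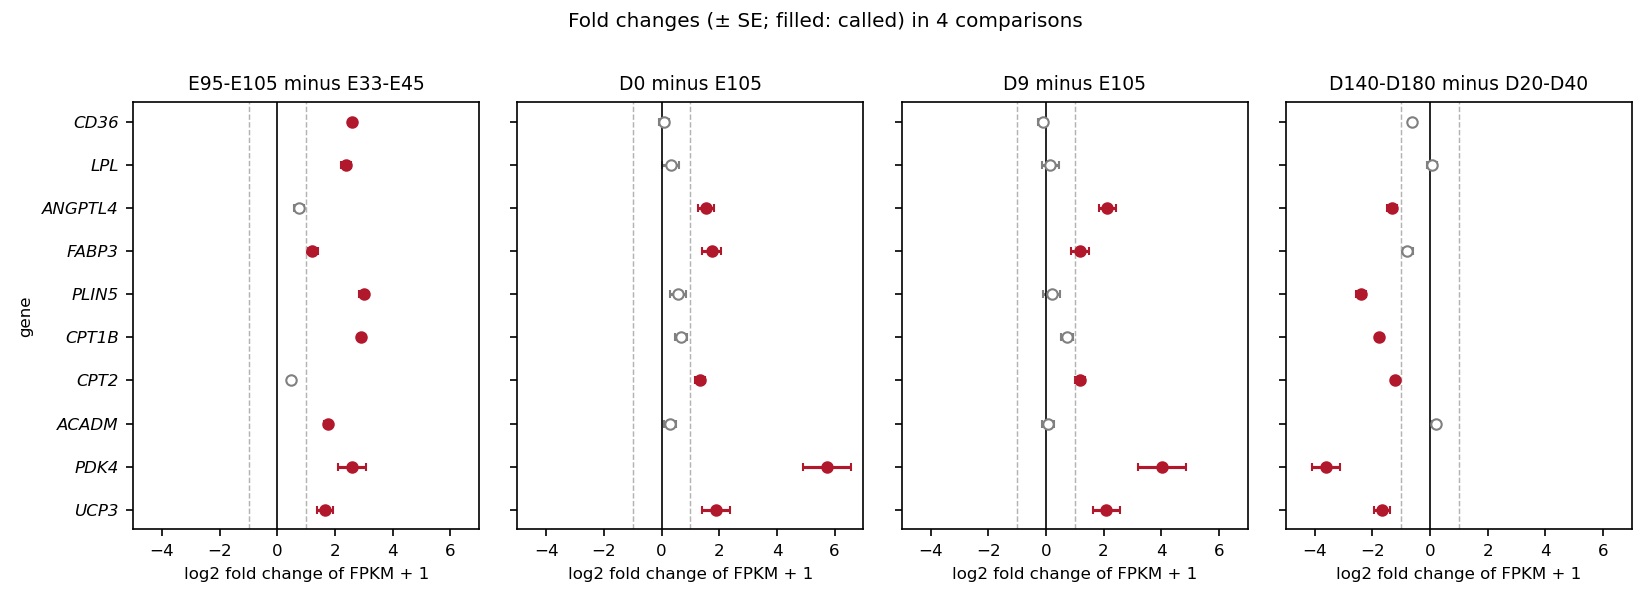
Difference of each gene between stages on the log2 scale of FPKM plus 1 (horizontal axis) with its standard error (bars) in 4 comparisons, filled points marking called differences and dashed lines the threshold of 1. PDK4 lies at 5.75 for D0 minus E105 and at -3.61 for D140 to D180 minus D20 to D40, while LPL lies at 0.31 and 0.05.

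From the last fetal stage to the day of birth, E105 to D0, 5 of the 10 were higher, PDK4, UCP3, FABP3, ANGPTL4 and CPT2, and none was lower. Of all genes tested 12.2% were called, 2.78% as higher, and the median difference was -0.20 over all genes and 1 over the 10. Calls over all genes were 395 higher and 1334 lower as deposited, and 767 and 803 after the median-gene rescaling. For 7 of the 10, these 5 with CPT1B and PLIN5, every D0 library lay above every E105 library, which held for 13.4% of all genes.

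PDK4 stood at 12.47, 21.03 and 10.74 FPKM in the 3 libraries of E105 and at 1440, 341 and 1098 at D0. Replicate 2 was the lowest at D0 and still far above each fetal library, and the difference was 5.75 (SE 0.835, adjusted p = 4.77e-08), or 6.38 without replicate 2. FABP3 was at 278, 245 and 401 FPKM at E105 and at 884, 1093 and 1062 at D0, higher by 1.74 (SE 0.325, adjusted p = 8.57e-06), and with a mean of 1013 FPKM it stood beside PDK4, at 959.8, as the most abundant members at birth. UCP3, at 2.81, 2.47 and 3.18 FPKM at E105 and 19.9, 13.4 and 8.25 at D0, was higher by 1.89 (SE 0.474, adjusted p = 6.6e-04).

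CPT2 went from 8.20, 5.79 and 8.56 FPKM to 14.2, 30.05 and 19.25, a difference of 1.33 (SE 0.181, adjusted p = 8.71e-09). ANGPTL4 went from 4.49, 2.83 and 3.47 FPKM to 8.35, 30.4 and 6.84, a difference of 1.54 (SE 0.292, adjusted p = 1.2e-05). All D0 libraries were above the fetal ones for both genes, but for ANGPTL4 replicate 2 was far above the other two, and without it the difference was 0.91 and no longer called. CPT1B, with 84.7, 123.1 and 92.7 FPKM at D0, differed by 0.67 (SE 0.201, adjusted p = 0.004), and PLIN5, with 16.9, 33.6 and 17.0, by 0.57 (SE 0.291, adjusted p = 0.0955). Neither was called.

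The 3 members whose levels at birth overlapped those at E105 were LPL, CD36 and ACADM. LPL stood at 128, 34.75 and 97 FPKM at D0 (difference 0.31, SE 0.302), CD36 at 49.2, 27.5 and 49.9 (0.08, SE 0.167) and ACADM at 265.6, 187.2 and 296.5 (0.30, SE 0.202). In each of these genes replicate 2 was the low library. Leaving it out moved LPL to 0.86 and CD36 to 0.35, and neither became a call. ANGPTL4, the inhibitor of LPL, differed from E105 by 1.54 with all libraries, where LPL differed by 0.31. Without replicate 2 ANGPTL4 differed by 0.91 and was not called.

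Other genes of the pathway moved both ways at birth, with 9 higher and 5 lower of 78 tested and a median difference of 0.13. PNPLA2, the lipase that opens the droplet, was higher by 1.93, from 5.12 ± 0.364 FPKM (SD, n = 3) at E105 to 22.3 ± 2.47 at D0, and its inhibitor G0S2 was lower, at -1.39. PLIN2, the general droplet coat protein, was higher by 1.87. PDK2, another kinase of pyruvate dehydrogenase, was higher by 1.33, ACADVL by 1.20, and ECI2, which handles unsaturated chains, by 1.02. MLYCD, which degrades malonyl-CoA, and ACACB, which makes it, were higher by 1.16 and 1.15. GPIHBP1, the anchor of LPL, was lower at -1.05 and the ketone enzyme BDH1 at -1.03. Of the regulators, ESRRA was higher by 1.01 and the coactivator PPARGC1B lower at -1.15. The PPAR genes themselves, singled out here after their values were seen, were not called: PPARA differed by -0.30, PPARD by -0.02 and PPARG by -0.24.

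Several other marker groups moved across the same step. Of 8 endothelial markers 7 were lower, with summed FPKM of 282 to 285 at E105 and 81.6 to 95.5 at D0, and of 8 macrophage markers 5 were lower. Of 9 glucocorticoid response genes 6 were higher, led by FKBP5 at 3.81, and their summed FPKM was 173 to 207 at E105 and 846, 257 and 501 at D0. Replicate 2, lowest in PDK4, LPL and CD36, was also lowest in this sum. It was highest in the summed slow-fibre genes, at 5180 against 1200 and 2730, as it was in CPT1B, CPT2, PLIN5 and ANGPTL4. The same library was also highest in the skeletal muscle, mitochondrial content, endothelial, macrophage and liver sums, but not in the adipocyte sum. Skeletal muscle markers summed to 25500 against 15700 and 21500 FPKM, and mitochondrial content genes to 5070 against 4540 and 4750. The part of endothelial cells, glucocorticoids, fibre type or any of these other groups in the members' differences was not tested.

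**Figure D4:**
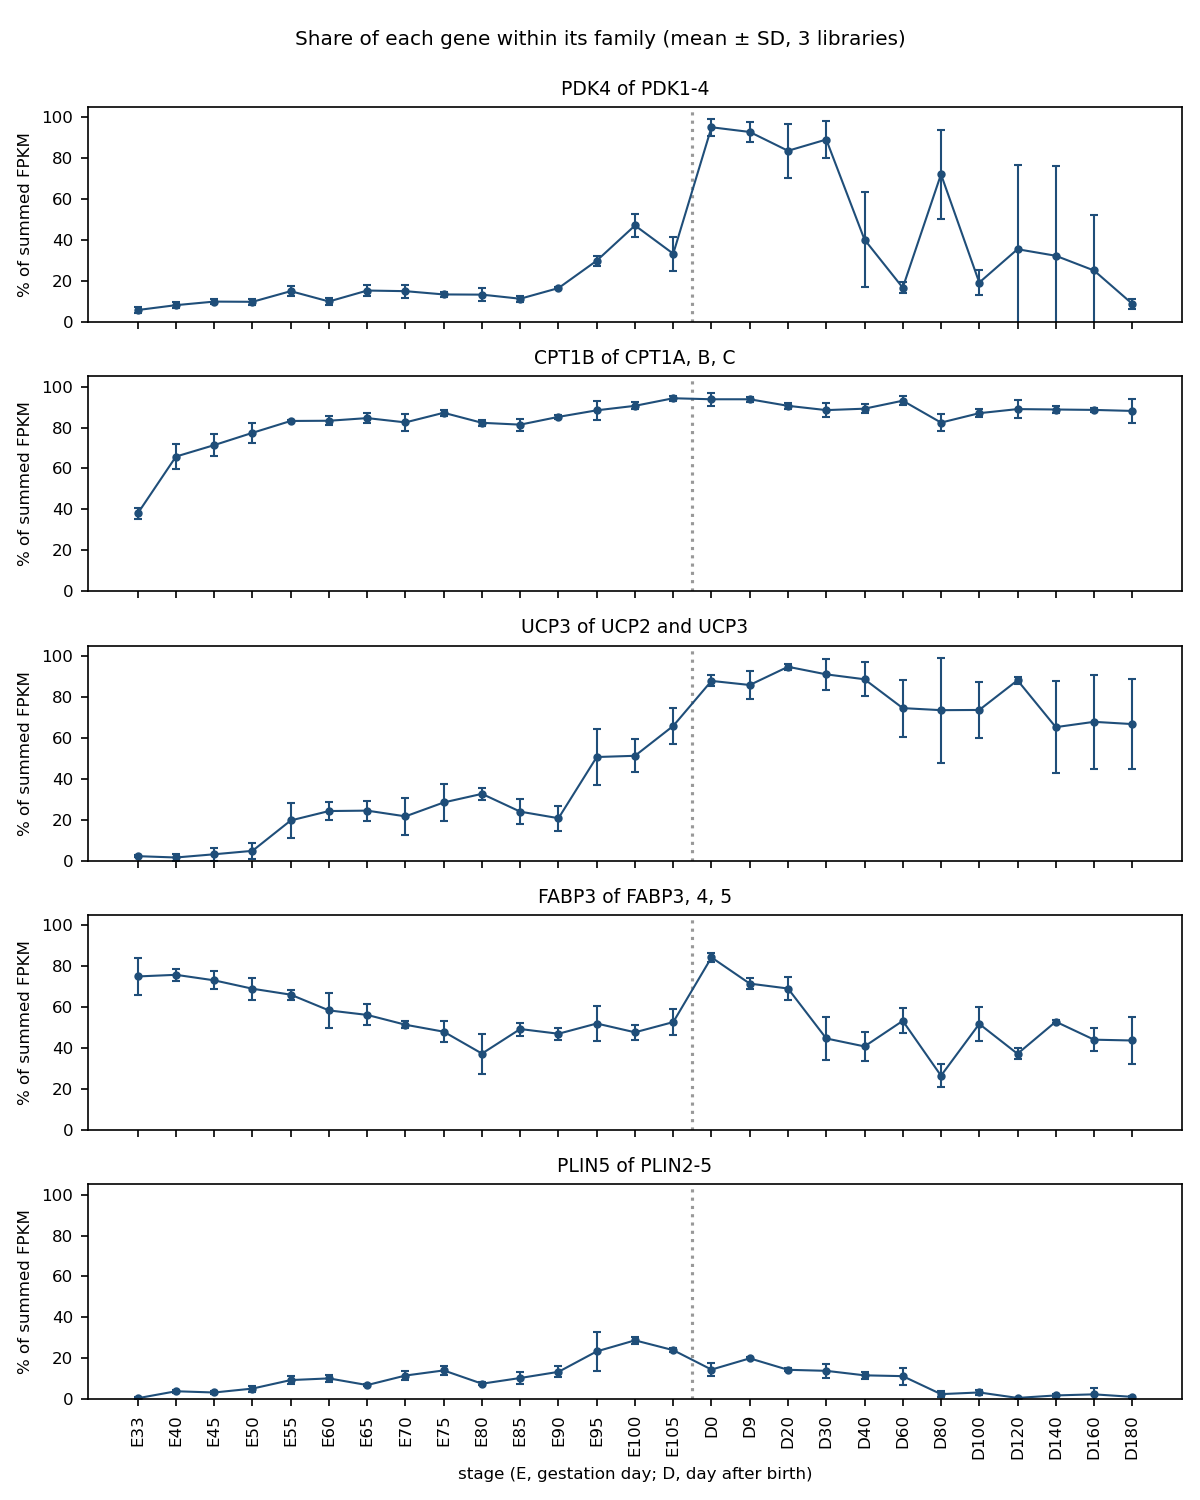
Share of the summed FPKM of its family held by PDK4, CPT1B, UCP3, FABP3 and PLIN5 (vertical axis, percent, mean of 3 libraries with SD bars, cut at 0) at 27 stages (horizontal axis), with birth as a dotted line. PDK4 held 33.3% of its family at E105 and 95.1% at D0, while CPT1B held 94.3% and 93.8%.

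Within their families, the members took different parts of the step. PDK4 supplied 5.78% ± 1.54 (SD, n = 3) of the summed FPKM of PDK1 to PDK4 at E33, 33.3% ± 8.24 at E105 and 95.1% ± 4.11 at D0. FABP3 went from 52.7% ± 6.47 of FABP3, FABP4 and FABP5 at E105 to 84.3% ± 2.32 at D0. UCP3 went from 65.8% ± 8.75 to 87.8% ± 2.72 of its sum with UCP2, after 2.15% ± 0.541 at E33. CPT1B supplied 93.8% ± 3.06 at D0, and PLIN5 held a smaller share of PLIN2 to PLIN5 at D0, 14.5% ± 3.17, than at E105, 24% ± 0.944, beside the rise of PLIN2.

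Between D0 and D9 none of the 10 was called, although 10.4% of all genes tested were, 709 higher and 773 lower as deposited and 1073 and 375 after the rescaling. This comparison and that of D0 with E105 share the D0 libraries. At an unadjusted p under 0.05, limma gave 2 genes, PDK4 and ANGPTL4. PDK4 stood at 112, 345 and 380 FPKM at D9, where replicates 2 and 3 lay just inside the D0 range and replicate 1 below it, and differed by -1.73 (SE 0.835, adjusted p = 0.0774). ANGPTL4 was at 13.6, 22.6 and 22.0 FPKM, inside the range of D0, and differed by 0.60 (SE 0.292, adjusted p = 0.0821). Without D0 replicate 2 both became calls, PDK4 at -2.35 and ANGPTL4 at 1.22, so this result rests on 1 library. FABP3, at 542, 698 and 847 FPKM, was the one member with every D9 library below every D0 library, as for 35.9% of all genes, and differed by -0.56 (SE 0.325, adjusted p = 0.145). Of the 78 pathway genes 3 were higher and 6 lower, among them OXCT1, which lets tissues burn ketone bodies, at 1.22, and PLIN2 and PNPLA2 at -1.43 and -1.18. Glucocorticoid response genes were lower in 5 of 9 cases and macrophage markers higher in 5 of 8. Skeletal muscle markers were higher in 5 of 8, with a median of 1.34, and slow-fibre markers in 4 of 7, with a median of 1.95, and the part of these groups was not tested.

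Setting D9 directly against E105 leaves D0 out of the difference, though it shares its libraries with the comparisons above. The 5 genes called were again PDK4 (4.02, SE 0.835, adjusted p = 4.37e-05), ANGPTL4 (2.13, SE 0.292, adjusted p = 1.23e-08), UCP3 (2.10, SE 0.474, adjusted p = 1.47e-04), FABP3 (1.18, SE 0.325, adjusted p = 0.00147) and CPT2 (1.18, SE 0.181, adjusted p = 1.57e-07), all higher. Of all genes tested 9.23% were called, 2.14% as higher, with a median of -0.39 over all genes and 0.96 over the 10. Calls over all genes went from 304 higher and 1008 lower to 724 and 174 after the rescaling, which moved their median to 0.01. UCP3 stood at 19.3, 13.3 and 13.9 FPKM at D9 and CPT2 at 18.3, 17.5 and 18.4, and for these 5 genes, CPT1B and PLIN5 every D9 library was above every E105 library, as for 8.71% of all genes. These calls held in each of 6 fits that left out 1 library. CPT1B, at 95.1 to 114.7 FPKM, differed by 0.73 and was called only under the median-gene rescaling, at 1.33. CD36 differed by -0.11 as deposited and by 0.47 under that rescaling, so no direction is given for it. Among 78 pathway genes 7 were higher and 1 lower, with CRAT at 1.85, MLYCD at 1.27, PLIN4 at 1.46 and PDK1 at -1.20. Of 6 adipocyte markers 3 were higher, with a summed FPKM over the list of 135 to 165 at E105 and 83.2 to 238 at D9, while of 8 skeletal muscle markers 4 were higher, and of 7 slow-fibre markers 3. Their part in the members' differences was not tested.

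From D9 to D20 no member was called, in a step where 0.281% of all genes were. At an unadjusted p under 0.05 limma gave 2 genes, CPT1B and PLIN5, the same 2 whose D20 libraries all lay below those of D9, as for 8.75% of all genes. CPT1B stood at 73.0, 66.9 and 83.8 FPKM at D20 (difference -0.47, SE 0.201, adjusted p = 0.352) and PLIN5 at 13.3, 8.27 and 10.3 (-0.60, SE 0.291, adjusted p = 0.461). UCP3 had its highest mean here, with 25.4, 13.1 and 24.3 FPKM, within the range it had at D9 and D30 together.

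The postnatal course was then read from D140, D160 and D180 against D20, D30 and D40. Of the 10, 6 were lower late and none higher: PDK4, PLIN5, CPT1B, UCP3, ANGPTL4 and CPT2. Over all genes 2.28% were called, 1.49% as lower, with a median of -0.05, against -1.27 over the 10. CD36, FABP3, ACADM and LPL were not called.

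Of the shuttle and droplet genes, CPT1B went from 73.0, 66.9 and 83.8 FPKM at D20 through 38.3, 41.3 and 41.8 at D30 and 23.4, 23.9 and 23.0 at D40 to 13.3, 9.92 and 8.87 at D180. Its 9 early libraries all lay above its 9 late ones, as did those of PLIN5, an order that 1.96% of all genes had. CPT1B was lower by a difference of -1.77 (SE 0.116, adjusted p = 3.78e-19). PLIN5 went from 13.3, 8.27 and 10.3 FPKM at D20 to 0.755, 0.361 and 0.386 at D180, with a difference of -2.40 (SE 0.168, adjusted p = 5.08e-18), and its share of PLIN2 to PLIN5 at D180 was 1.18% ± 0.35 (SD, n = 3). CPT2, at 19.4, 13.4 and 19.5 FPKM at D20 and 3.203, 3.001 and 3.651 at D180, differed by -1.20 (SE 0.104, adjusted p = 1.41e-14).

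ANGPTL4 stood at 21.8, 10.5 and 18.3 FPKM at D20 and 1.25, 2.42 and 2.32 at D180, and was lower by -1.33 (SE 0.169, adjusted p = 2.36e-09). UCP3 stood at 3.96, 1.82 and 3.59 FPKM at D180, against 25.4, 13.1 and 24.3 at D20, and was lower by -1.67 (SE 0.274, adjusted p = 1.04e-06). PDK4 was lower by -3.61 (SE 0.482, adjusted p = 8.75e-09), the largest difference of the set, and by -4.19 without D140 replicate 3. CD36 differed by -0.64 (SE 0.0962) and FABP3 by -0.79 (SE 0.187), below the threshold in each case. LPL, at 68.5, 71.6 and 103 FPKM at D20 and 42.8, 51.7 and 71.5 at D180, differed by 0.05 (SE 0.174), and ACADM by 0.19 (SE 0.117).

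Pathway genes outside the set were called 5 higher and 5 lower among 78, with a median of -0.17. Lower were MLYCD (-1.87), ECI1, which handles unsaturated chains (-1.33), CPT1A, the liver form of the shuttle enzyme (-1.28), GPIHBP1 (-1.20) and ACADVL (-1.01). Higher were ACACA (1.25), PRKAA2, a catalytic subunit of the energy sensor AMPK (1.19), and the droplet genes CIDEC (1.33) and CIDEA (1.22). The fifth, FGF21, a secreted PPAR target, was higher by 1.06. Slow-fibre markers were lower in 7 of 7 cases, with a median of -1.27, and mitochondrial content genes in 1 of 14, with a median of -0.65. Of 6 adipocyte markers 2 were higher and 0 lower. The part of fibre type in the members' fall was not tested, and within D160 some members ran with the slow-fibre sum: replicate 2, at 19200 summed FPKM of slow-fibre genes, had 22.2 FPKM of CPT1B against 8.73 and 10.4, 7.37 of CPT2 against 3.73 and 2.24, and 3.05 of PLIN5 against 0.287 and 0.0676. PDK4 was highest in replicate 2 as well, at 21.0 FPKM against 1.60 and 1.53, as were CD36, FABP3, ACADM and LPL, which were not called. UCP3 and ANGPTL4, also called lower, did not follow. UCP3 was lowest in replicate 2, at 1.43 FPKM against 3.58 and 3.07, and ANGPTL4 lay between the others, at 3.92 against 2.36 and 4.44. Replicate 2 was also highest in the mitochondrial content sum (2520 FPKM against 1820 and 2290) and the endothelial sum (156 against 78.5 and 99.9). The adipocyte, macrophage, liver and glucocorticoid response sums were highest in it as well. Its skeletal muscle sum was the lowest of the stage, at 36100 against 60400 and 71300. The part of these groups was not tested. Without replicate 2 the late against early differences were -1.90 for CPT1B, -1.32 for CPT2 and -2.60 for PLIN5.

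PDK4 after birth was less a curve than a set of high and low libraries. At D30 it stood at 66.1, 223 and 334 FPKM, and at D40 at 13.2, 22.6 and 2.68. This step was called (-4.00, SE 0.835, adjusted p = 5.76e-04), when 1.47% of all genes were called. D60 was low in all 3 libraries, at 2.09, 3.57 and 4.26 FPKM, and D80 higher in all 3, at 13.3, 56.0 and 97.4. From D100 on, most libraries were between 1.24 and 5.62 FPKM. The exceptions were D120 replicate 3 at 77.1, D140 replicate 3 at 83.2 and D160 replicate 2 at 21.0 FPKM, each beside 2 libraries at 2.43 or less. The summed glucocorticoid response genes were highest in these same libraries. They stood at 293 against 133 and 161 at D120, 407 against 131 and 163 at D140, and 181 against 157 and 162 at D160. The summed adipocyte markers (195, 179 and 181 FPKM) and mitochondrial content genes (2000, 2240 and 2520) were also highest in these libraries. At D60 the glucocorticoid sum was highest in replicate 1, at 218 FPKM, where PDK4 was lowest, at 2.09. Over all postnatal stages, the glucocorticoid sum and PDK4 shared their highest library except at D9, D60 and D100. The adipocyte sum shared it except at D40, and the mitochondrial content sum except at D0, D20, D30, D60, D100 and D180. The part of these groups in the PDK4 levels was not tested. What sets D120 replicate 3, D140 replicate 3 and D160 replicate 2 apart is not in the labels. The SD was 70.3% of the mean in the median postnatal stage for PDK4, and 165% at D140, against 17.1% in the median prenatal stage.

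**Figure D5:**
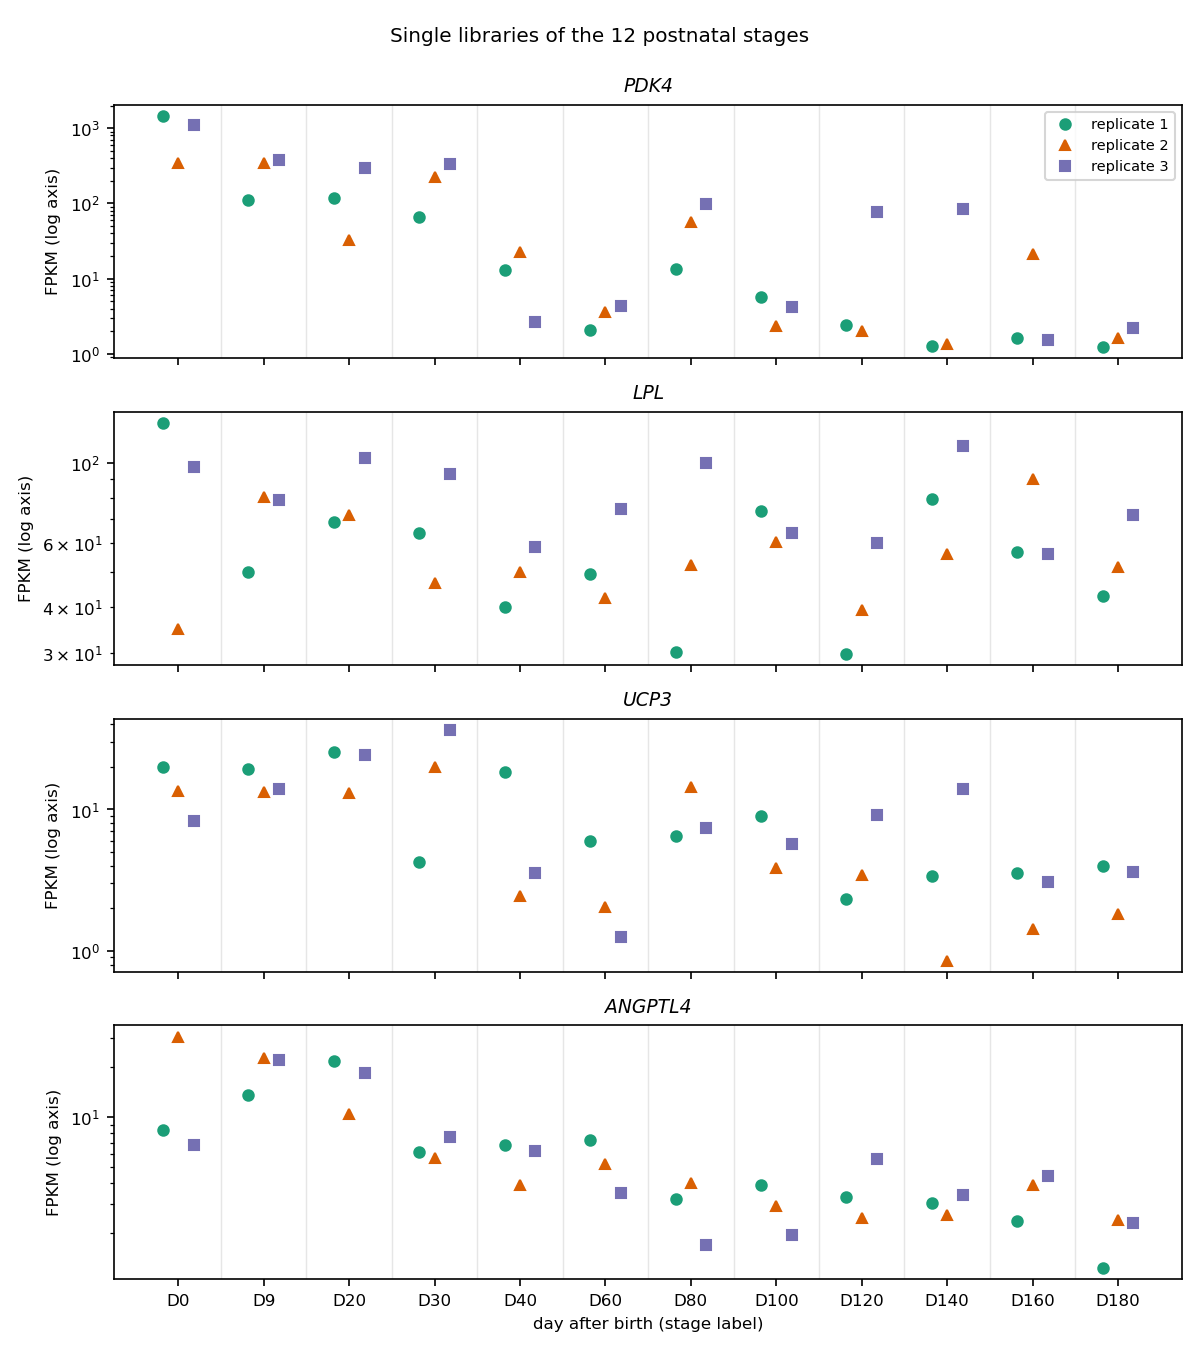
FPKM (log axis) of PDK4, LPL, UCP3 and ANGPTL4 in the 3 single libraries of each of 12 postnatal stages (horizontal axis, not to scale in time), with symbol and colour for the replicate number. PDK4 at D140 shows 1 library at 83.2 FPKM over others at 1.27 and 1.35, and LPL and PDK4 share their highest library in 10 of 12 stages.

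LPL was highest in the same library as PDK4 in 10 of 12 postnatal stages, and CPT1B, CPT2, FABP3 and PLIN5 in 7, CD36 and UCP3 in 5, and ACADM and ANGPTL4 in 4. Over all genes tested the median was 5 of 12. Before birth the count for LPL was 6 of 15, where the median over all genes was 5. These counts are descriptions of shared libraries and carry no test.

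Adjacent stages gave 19 calls among the 260 pairs of member and step, or 7.31%, 11 of them higher and 8 lower, when 1.65% of all such pairs of gene and step were called. They fell in 8 of the 26 steps. The 14 prenatal steps held 2 of them, the step into D0 held 5, and the 9 steps from D20 on held 12. Calls over all genes were also unevenly spread. They made up 3.58% from E33 to E40 and 0.0352% to 0.647% in the other prenatal steps. In the step into D0 they made up 12.2%, and in single steps from D20 on 0.0633% to 3.79%. Every step used 1 spread per gene pooled over all 27 stages, so quieter stages were judged against the spread of noisier ones. For PDK4 the SD was 17.1% of the mean in the median prenatal stage and 70.3% in the median postnatal one. The numbers of prenatal and postnatal calls are therefore not directly comparable. From D20 to D30, FABP3 dropped from 925, 439 and 570 FPKM to 125, 198 and 130 (difference -2.05, SE 0.325, adjusted p = 3.15e-06), with ACADM from 186.5, 178.4 and 214.3 to 86.0, 73.4 and 77.3 (-1.28, SE 0.202, adjusted p = 2.91e-06) and ANGPTL4 from 21.8, 10.5 and 18.3 to 6.21, 5.66 and 7.59 (-1.21, SE 0.292, adjusted p = 0.00166). In this step 2.57% of all genes were called.

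The later steps went up and down. FABP3 was called in 4 of them: lower at D30, lower again from D60 to D80 (-1.999, SE 0.325, adjusted p = 4.6e-06), higher from D80 to D100 (1.51, SE 0.325, adjusted p = 6.74e-04) and lower from D100 to D120 (-1.25, SE 0.325, adjusted p = 0.00483). Its values ran 206, 323 and 396 FPKM at D60, then 60.1, 47.8 and 139 at D80, 303, 136 and 230 at D100 and 63.4, 76.6 and 143 at D120. From D60 to D80, when 3.79% of all genes were called, PDK4 was higher by 3.36 and UCP3 by 1.45 while PLIN5 was lower, at -1.28, so the called members went both ways. From D80 to D100, with 2.2% of all genes called, PDK4 was lower at -3.14 and ACADM higher by 1.04, and from D100 to D120, with 1.7% called, FABP3 was the one member called.

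D60 was set against D40 and D80, a comparison chosen because earlier results of these data showed it to stand apart. FABP3 was higher than the mean of its neighbours by 1.54 (SE 0.281, adjusted p = 1.22e-04), with every D60 library above all 6 others, as for 3.33% of all genes, and PDK4 was lower, at -2.35 (SE 0.723, adjusted p = 0.0286). Of all genes 0.893% were called. Against D40 alone FABP3 differed by 1.07 (SE 0.325, adjusted p = 0.0945) and was not called. The PDK4 call was lost in 6 of 9 fits that left out a library, among them each of the 3 D60 libraries, and both calls were lost when only the 9 libraries compared were fitted, with adjusted p of 0.169 for PDK4 and 0.104 for FABP3. UCP3, at 5.95, 2.05 and 1.26 FPKM at D60, differed by -1.17 (adjusted p = 0.0613) and was not called. Under the median-gene rescaling it was called by limma, at -1.23 (adjusted p = 0.0474). Of the pathway genes FGF21 was higher by 4.23 (26.9 ± 20.1 FPKM, SD, n = 3, against 0.104 ± 0.0917, n = 6), ACAT1, which cleaves acetoacetyl-CoA, by 1.20 and G0S2 by 1.299, and TXNIP, a brake on glucose uptake, was lower at -1.12.

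Across the 27 stage means the members most alike were CD36 with LPL (Pearson r = 0.945) and CPT1B with PLIN5 (0.937), and the least alike were CPT2 with LPL (0.384) and LPL with PLIN5 (0.411). Of all tested genes with a symbol, the stage profile most like that of CD36 was SLC25A4, the muscle ADP/ATP carrier (0.979), and for FABP3 it was ATP5A1, a subunit of ATP synthase (0.954). ACADM ran closest to NDUFB3, a subunit of complex I (0.955), UCP3 to ACADS (0.940), and CPT2 to DLST, an enzyme of the citric acid cycle (0.932). ANGPTL4 ran closest to ECH1, an auxiliary enzyme of beta oxidation (0.909), PLIN5 to PRX (0.943) and PDK4 to TXNIP (0.893), followed by ACADVL and ECH1. For LPL the nearest profile was that of CD36, and for CPT1B that of PLIN5. These values are over 27 stages that share their libraries with every gene compared, and they carry no test.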

How the data were processed

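The authors deposited 1 table of FPKM per gene for 81 libraries of pig skeletal muscle. Per the labels' protocols, ribosomal RNA was removed from total RNA, and the libraries kept the strand and were read from both ends. The submitters' processing notes name Trimmomatic, HISAT2 2.0.4 and StringTie 1.3.1, and the genome build is not given in the sources used here. Of 28325 entries, 264 repeated a gene ID with the same values and were dropped. FPKM are shares of a library, so a rise of a few abundant transcripts lowers all others. The table holds no counts. Absolute depth is therefore unknown, and relative depth was read from the commonest ratio of values below 0.05 FPKM between libraries. Ratios taken directly between 78 pairs of libraries matched within 0.02 on the log2 scale in all 78.

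FPKM plus 1 was put on the log2 scale and fitted by limma 3.58.1 (R 4.3.3) in 1 model of 27 stage means over all 81 libraries (54 residual degrees of freedom), after 13841 genes without 1 FPKM in at least 3 libraries were removed. The script was tested on simulated data. P-values were adjusted by Benjamini-Hochberg over 14220 genes within each comparison. Python 3.11.15, numpy 2.4.6 and pandas 2.3.3 were used for summaries. The members and the lists of pathway and marker genes were chosen with earlier results of these data known. All members are named. Other genes were named from the 3 largest called differences per list and comparison, except where stated, and from the 3 profiles nearest to each member. Alternatives were a pseudocount of 0.1, no filter, median-ratio scaling, a replicate block, fits of the compared stages alone, leaving out the D0 stage, and leaving out each library. ACOT1, ACOT2 and MT2A were not matched in the table and not used.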

Additional observations from a re-analysis of the deposited data

How the results depend on the processing

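The member counts of 5, 8, 5, 0, 5, 0, 6 and 2 (postnatal against prenatal, late against early fetal, D0 against E105, D9 against D0, D9 against E105, D20 against D9, late against early postnatal, D60 against its neighbours) did not change without a filter on low values. With a pseudocount of 0.1, counts over all genes were 6639, 3726, 3531, 2775, 3192, 75, 898 and 294 in that order, against 3781, 2188, 1729, 1482, 1312, 40, 324 and 127, and 13100 against 6093 over adjacent steps. Median-ratio scaling gave 9 members and 2411 genes for postnatal against prenatal. It turned PLIN5 there to 0.37, CD36 to 0.47 in D9 against E105, and, in D9 against D0, CPT2 to 0.12, CD36 to 0.087, ACADM to 0.071 and LPL to 0.13. Fitted on the compared libraries alone, D20 against D9 called 1 gene, and D60 called 36 genes and 0 members.

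Leaving out single libraries gave 4 to 5 members for D0 against E105, 0 to 2 for D9 against D0, 1 to 3 for D60, 5 to 6 for postnatal against prenatal, and 21 to 86 genes for D20 against D9 (86 without D9 replicate 1, 21 without D9 replicate 3). Uncalled values that changed sign ranged from -0.066 to 0.35 (CD36) and -0.065 to 0.86 (LPL) in D0 against E105, and from -0.20 to 0.042 (CD36) in D9 against E105. In D9 against D0 they ranged from -0.048 to 0.22 (CPT1B), -0.39 to 0.12 (CPT2), -0.70 to 0.22 (LPL) and -0.091 to 0.50 (UCP3). In D20 against D9 they ranged from -0.16 to 0.097 (CPT2), -0.45 to 0.086 (FABP3) and -0.44 to 0.073 (ANGPTL4). LPL ranged from -0.033 to 0.13 in late against early postnatal, and at D60 ACADM ranged from -0.20 to 0.21 and LPL from -0.16 to 0.28. UCP3 became a call at D60 in 3 of 9 fits, and ANGPTL4 became one in 12 of 81 postnatal fits. The cause of these changes was not tested.

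Over the series as a whole, same-numbered libraries of different stages did not deviate together. Of 1053 pairs, 240 correlated above 0.1, with a median of -4e-04 and a range of -0.487 to 0.412. The median of differently numbered pairs was -0.00174. A median over all pairs cannot show whether the numbers pair libraries among some of the stages. With the replicate block, members called stayed at 5, 8, 5, 0, 5, 0, 6 and 2 and at 19 over adjacent steps. FPKM give no absolute depth, so no counting interval is available, and 3 libraries a stage limit the precision.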
